A study of Mus musculus with 2 samples.

Results

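Transcripts of 10 cardiac transcription factors, Gata4, Gata6, Nkx2-5, Tbx5, Tbx20, Hand1, Hand2, Mef2c, Irx4 and Nr2f2, were followed across the chambers and lineages of the mouse heart at E12.5, in mid-gestation. The genes were matched by symbol, and all 10 were found among the 31053 genes of both gene tables. Hearts were dissociated with TrypLE and profiled by droplet single-cell RNA sequencing, with 1 library per genotype. Both genotypes carried Tbx18-Cre, a recombinase under the control of the epicardial T-box gene Tbx18, and a heterozygous YFP reporter, so the controls also expressed Cre. The control library was labelled Tbx18-Cre; YFP/+. In the mutant library, labelled Tbx18-Cre; Prmt1 fl/fl; YFP/+, Cre was present with floxed alleles of Prmt1, a protein arginine methyltransferase. The sources used here do not say whether cells were sorted or how many embryos each library holds.

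The heart is built by a small set of DNA-binding proteins that act together on shared enhancers. GATA zinc-finger proteins, the homeodomain protein Nkx2-5, T-box proteins, the basic helix-loop-helix Hand proteins and the MADS-box protein Mef2c form its core. Chamber identity adds restricted factors, such as the ventricular Iroquois protein Irx4 and the orphan nuclear receptor Nr2f2 (COUP-TFII) of the atria and veins, and several core factors also act in the epicardium, the valves and the endocardium.

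The 250 bases upstream of the start site are shown for 3 members, because Irx4 and Nr2f2 had the most one-sided chamber distributions among the members with an entry in the RefSeq promoter table and Nkx2-5 was nearly limited to cardiomyocytes. The table matched 6 of the 10 genes (Nkx2-5, Tbx20, Hand2, Mef2c, Irx4 and Nr2f2). Sequences are from RefSeq on GRCm38.p6, read 5′ to 3′ on the gene's strand, and capitals mark matches to the motifs described after them.
Irx4 promoter, chr13:73260247-73260496, plus strand: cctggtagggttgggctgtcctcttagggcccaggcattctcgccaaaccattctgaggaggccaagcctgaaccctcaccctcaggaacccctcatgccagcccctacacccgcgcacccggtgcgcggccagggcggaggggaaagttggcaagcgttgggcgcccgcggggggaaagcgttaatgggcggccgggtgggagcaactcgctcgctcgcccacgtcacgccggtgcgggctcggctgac
Nr2f2 promoter, chr7:70366747-70366996, minus strand: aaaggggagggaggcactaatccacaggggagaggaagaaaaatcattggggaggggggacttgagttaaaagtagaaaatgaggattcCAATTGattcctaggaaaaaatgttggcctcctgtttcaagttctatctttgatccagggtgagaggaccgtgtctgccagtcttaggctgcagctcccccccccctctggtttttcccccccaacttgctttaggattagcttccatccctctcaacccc
Nkx2-5 promoter, chr17:26841566-26841815, minus strand: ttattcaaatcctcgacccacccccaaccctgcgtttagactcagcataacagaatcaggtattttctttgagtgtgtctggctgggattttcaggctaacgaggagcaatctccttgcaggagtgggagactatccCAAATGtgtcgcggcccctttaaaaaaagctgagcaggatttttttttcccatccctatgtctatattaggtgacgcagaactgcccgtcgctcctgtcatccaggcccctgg

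Motifs were searched on both strands, namely AGATAA for GATA factors, TNAAGTG for Nkx2-5, AGGTGT for T-box factors, the Mef2 motif (CTA and TAG 4 bases apart), the E-box CANNTG for basic helix-loop-helix factors, and the nuclear receptor half-site AGGTCA. No letter of one match was shared with another in the 3 windows. The Irx4 window held none of these letters, and the Nr2f2 and Nkx2-5 windows each held 1 E-box. Of the 6 members with a window, 4 held an E-box. E-boxes stood in 66.2% of all 32851 promoter windows of this length. The other motifs stood in 9.99% (GATA), 10.1% (Nkx2-5), 11.8% (T-box), 3.20% (Mef2) and 14.0% (half-site). These matches describe the letters of the windows only.

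Cells were taken with at least 1000 UMIs (unique molecular identifiers, each a counted transcript molecule), at least 500 genes and at most 20% mitochondrial UMIs, which left 4100 control and 4640 mutant cells. A gate on marker genes, none of them a member, assigned cells to 5 types. It gave 1603 control and 1254 mutant ventricular cardiomyocytes, 429 and 335 atrial cardiomyocytes, 233 and 403 epicardial cells, 633 and 976 mesenchymal cells, and 130 and 194 endothelial cells. Another 21.1% of control and 25.4% of mutant cells fitted no type. The gate itself set the levels of its markers, so these describe the types and do not check them. Cdh5 stood at 156 and 227 CPM (UMIs of the gene per 1000000 UMIs of the type) in endothelial cells. In the other 4 types it stood at most at 0.603 CPM. Upk3b stood at 850 and 631 CPM in epicardial cells and at most at 2.87 CPM in the other 4. The cells gated as epicardial also carried fibrillar collagens. Their summed mesenchymal panel was 2619 CPM in the control and 1925 CPM in the mutant, against an epicardial panel of 2810 and 2157 CPM. Endothelial cells carried 130 and 170 CPM of the mesenchymal panel, and the cardiomyocyte panel stood at 345 to 627 CPM in the 3 non-muscle types. The endothelial panel, with Ramp2, Egfl7 and Tek that the gate left out, stood at 488 and 473 CPM in mesenchymal cells. In endothelial cells it stood at 3738 and 3819 CPM. The ventricular panel stood at 789 CPM in control and 1325 CPM in mutant atrial cells, against 17517 and 17243 CPM in ventricular cells. Tbx18 itself stood at 106 and 84.4 CPM in epicardial cells, 16.5 and 14.2 CPM in mesenchymal cells and 3.22 and 3.88 CPM in ventricular cells. Prmt1 stood at 445 CPM in control and 355 CPM in mutant epicardial cells, a mutant to control ratio of 0.798 (95% counting interval 0.700 to 0.909), and at ratios of 0.997 to 1.19 in the other types. The floxed exons are not named in those sources, so these 3′ tags do not check the deletion.

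Levels below are CPM summed over the cells of a type, compared for 1 gene between types or libraries. Intervals in brackets are exact 95% intervals and cover counting error only. With 1 library per genotype, differences between embryos and between preparations could not be estimated and no test was made.

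Across the 5 types the members fell into 4 patterns. Nkx2-5 was nearly limited to both chambers, Hand1 and Irx4 were highest in the ventricle and at or near 0 in the atrium, Tbx5 and Nr2f2 favoured the atrium over the ventricle, and Gata4, Gata6, Tbx20, Hand2 and Mef2c were detected in every type. In both libraries 8 of 10 members were highest in the same type, where 64.1% of 8149 genes were, so the share of members was read only against that background. Gata6 and Hand2 were the exceptions, and with clusters in place of the gate both were highest in the same type in both libraries.

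**Figure D1:**
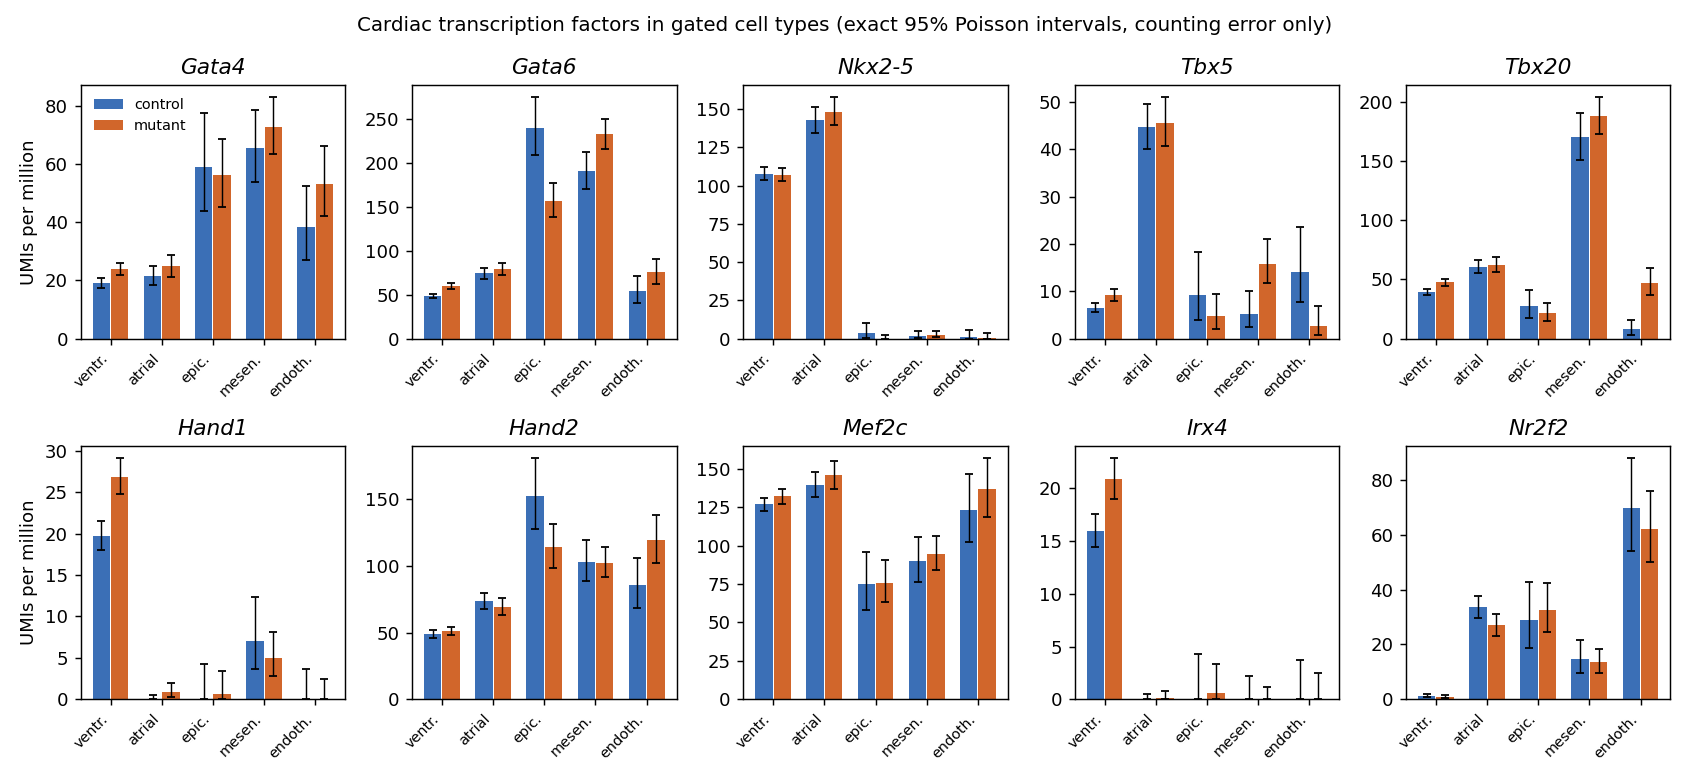
Level of each gene in CPM (vertical axes, one scale per gene) in 5 gated cell types of the control (blue) and mutant (orange) library, with exact 95% Poisson intervals as bars. Nkx2-5 stood above 100 CPM in both chambers and under 4 in the other types, and Irx4 was at or near 0 outside the ventricle.

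Nkx2-5, the homeodomain factor of the cardiomyocyte lineage, stood at 108 CPM in control and 107 CPM in mutant ventricular cells. In atrial cells it stood at 143 and 148 CPM. Outside the cardiomyocytes it was 0 to 3.47 CPM, from at most 7 UMIs in a type, so the order among those types was not resolved by counting. RNA free in the droplets carried the gene, since near-empty control barcodes, those with at most 100 UMIs, held Nkx2-5 at 65.3 CPM. Red cells, defined by at least 50% haemoglobin UMIs, had 0 UMIs in the control and 1 in the mutant. The same barcodes held Gata4 at 22.4 CPM, Tbx5 at 16.0 CPM and Tbx20 at 48.0 CPM, levels at or above those of some types, while red cells held at most 8 UMIs (2.598 CPM) of any member. Mutant epicardial cells had 0 UMIs, which allowed up to 1.81 CPM.

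Gata4, a zinc-finger factor of heart muscle and of the cushions and epicardium, was highest in mesenchymal cells, at 65.4 CPM in the control (53.8 to 78.7) and 72.8 CPM in the mutant (63.5 to 83.0). Epicardial cells followed with 59.0 and 56.1 CPM, and endothelial cells with 38.3 and 53.1 CPM. In ventricular cells it stood at 19.1 and 24.0 CPM and in atrial cells at 21.6 and 24.8 CPM. Its order over the 5 types was the same in both libraries, although mesenchymal and epicardial cells of the control, epicardial and endothelial cells of both libraries, and the 2 chambers of both libraries did not differ beyond counting error.

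Gata6, its paralogue in mesoderm, was highest in epicardial cells of the control at 241 CPM (209 to 276), with mesenchymal cells at 191 CPM. Of the 208 control UMIs 126 lay in 23 of the 233 epicardial cells, those of cluster 22, whose mesenchymal panel exceeded its epicardial panel. In the mutant the order of these types was the other way round, with 157 CPM (139 to 178) in epicardial and 233 CPM in mesenchymal cells. Atrial cells held 74.5 and 79.4 CPM, endothelial cells 54.4 and 75.6 CPM, and ventricular cells 48.6 and 59.6 CPM. With clusters in place of the gate, which leave cluster 22 in no type, Gata6 was highest in mesenchymal cells of both libraries. For both GATA genes, gated epicardial and mesenchymal cells thus stood above both chambers. Endothelial cells did not differ from atrial cells in the mutant or from ventricular cells in the control beyond counting error for Gata6.

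Tbx20, a T-box factor of myocardium and valve mesenchyme, stood at 170 CPM (151 to 191) in control and 188 CPM (173 to 204) in mutant mesenchymal cells, above every other type. Atrial cells held 60.4 and 62.3 CPM and ventricular cells 39.2 and 47.7 CPM. Epicardial cells held 27.8 and 21.7 CPM. Endothelial cells were the lowest of the control at 8.06 CPM, and stood at 47.0 CPM in the mutant.

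Mef2c, the MADS-box partner of these factors, was spread over all 5 types. It stood at 127 and 132 CPM in ventricular, 139 and 146 CPM in atrial, 123 and 137 CPM in endothelial, 90.1 and 94.9 CPM in mesenchymal, and 75.2 and 76.0 CPM in epicardial cells. Immune cells, gated on genes such as Csf1r and Tyrobp, held far more, 701 CPM (603 to 809) in the control and 586 CPM (507 to 672) in the mutant. Near-empty barcodes held Mef2c at 113 CPM (97.3 to 131), above its mesenchymal and epicardial levels. Red cells held it at 0.466 CPM in the control and 0.650 CPM in the mutant. The part of free RNA in the mesenchymal and epicardial levels was not tested. With free RNA subtracted, epicardial Mef2c stood at 68.6 CPM in the control and 27.8 CPM in the mutant. The log2 ratio was then -1.06, against 0.01 without subtraction. The amount subtracted was scaled by haemoglobin, at 0.948% of UMIs in control and 3.95% in mutant epicardial cells, against 7.40% in near-empty barcodes. Nkx2-5, at 65.3 CPM in near-empty barcodes, had 0 UMIs in mutant epicardial cells. Whether the scaling suits the mutant was not tested. In immune cells no member other than Mef2c had more than 1 UMI, which was Gata6 in the control (3.77 CPM). These were 76 control and 69 mutant cells, where the exact 95% interval of 0 UMIs reached 13.9 and 10.7 CPM.

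Hand2, a basic helix-loop-helix factor of the outflow tract, epicardium and endocardium, was highest in epicardial cells of the control at 153 CPM (128 to 181) and in endothelial cells of the mutant at 119 CPM (102 to 138). In the mutant, endothelial, epicardial (114 CPM) and mesenchymal cells (102 CPM) followed each other without a gap beyond counting error. The ventricle held 49.0 and 50.9 CPM and the atrium 73.7 and 69.1 CPM. Control atrial and endothelial cells (85.7 CPM) did not differ beyond counting error.

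Its relative Hand1, a factor of the left ventricle and outer wall, behaved differently. Hand1 had 501 control and 589 mutant UMIs in ventricular cells, 19.7 and 26.9 CPM. In atrial cells it had 0 and 6 UMIs. It was next highest in mesenchymal cells, at 7.07 and 4.94 CPM from 12 and 15 UMIs, which overlaps the 6.41 CPM (3.07 to 11.8) of near-empty barcodes, and endothelial cells had none in either library.

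Nr2f2 was highest in endothelial cells, at 69.5 CPM (54.1 to 88.0) in the control and 62.0 CPM (49.9 to 76.1) in the mutant. Atrial cells held 33.5 and 26.9 CPM and epicardial cells 28.9 and 32.6 CPM, which did not differ beyond counting error in either library. Mesenchymal cells held 14.7 and 13.5 CPM, and ventricular cells 1.30 and 1.0 CPM. In the control endothelium 1 cell carried 25 of the 69 UMIs, and in the mutant no cell carried more than 11 of 91.

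Single cells of different types differed in depth, from a median of 1907 UMIs in control mesenchymal cells to 13275 in control atrial cells. Each cell was therefore thinned to 1000 UMIs before the share of cells with a UMI was taken. Nkx2-5 was then seen in 9.92% of control and 9.81% of mutant ventricular cells, against 66.0% and 69.9% before thinning. Tbx20 was seen in 12.2% of mesenchymal cells in both libraries (22.1% and 27.8% before thinning). Red cells, with medians of 16346 and 12631 UMIs before thinning, gave 0% for these genes. Of the 10 members, control cells showed a mean of 0.402 in the ventricle, 0.564 in the atrium, 0.442 in the epicardium, 0.464 in the mesenchyme and 0.315 in the endothelium, and red cells 0.00769. Mutant means were 0.394, 0.564, 0.380, 0.530 and 0.387 in the same order, and 0.00433 in red cells. These factors were thus sparse per cell at equal depth, and of the 5 types atrial cells had the highest mean in both libraries. Mutant atrial and mesenchymal cells were close, with 56.4% and 57.0% of cells showing none. The means come from a single random thinning and have no interval.

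**Figure D2:**
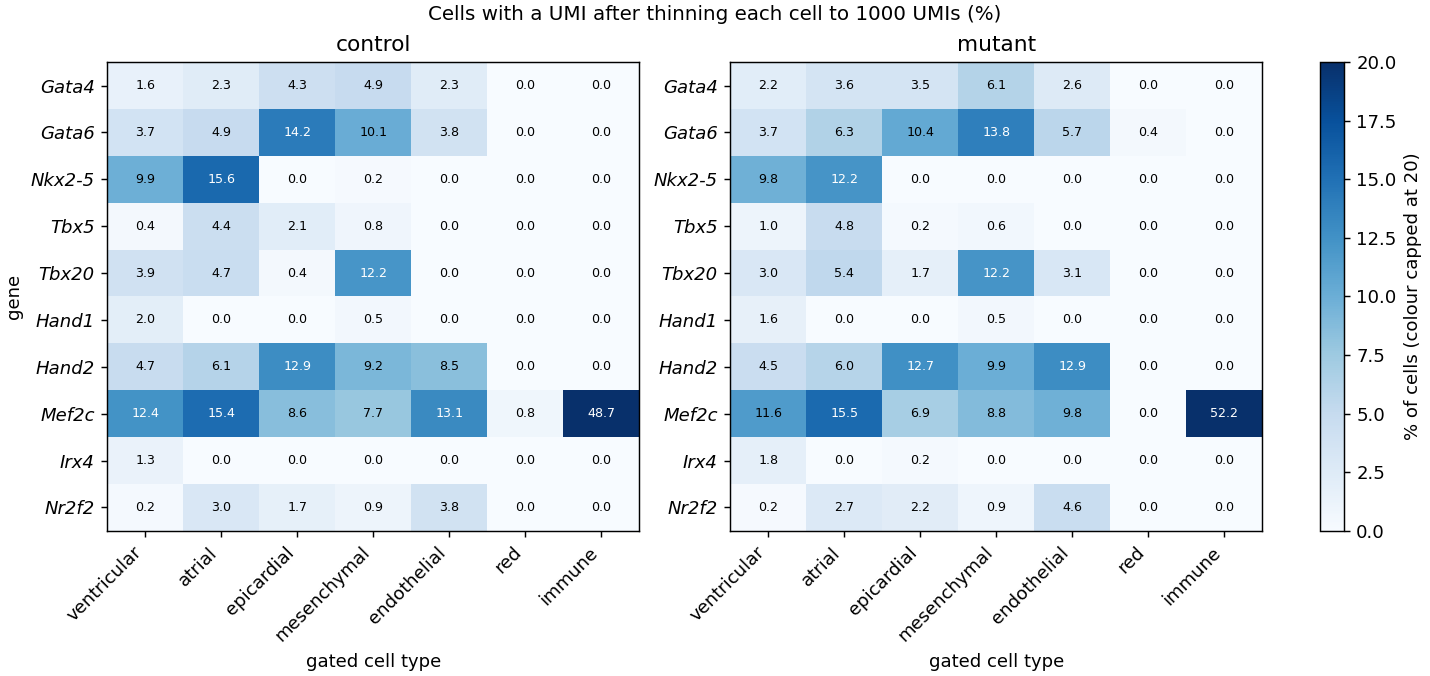
Percent of cells with at least 1 UMI of each gene (rows) after thinning each cell to 1000 UMIs, by gated cell type (columns), in the control (left) and mutant (right) library. Mef2c in immune cells reached 48.7% and 52.2%, and red cells were at 0 for nearly all members.

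The comparison of chambers asked which factors separate ventricular from atrial cardiomyocytes within a library. A gene was counted when the ratio of (CPM + 10) exceeded 1.5-fold and the mean of both sides reached 10 CPM. Tbx5 and Nr2f2 passed in both libraries, both lower in the ventricle, as 2 of the 8 members measured in both. Among all 5298 genes 6.38% passed in the same direction in both libraries, 2.1% higher and 4.28% lower in the ventricle.

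Tbx5, the limb and heart T-box factor of the posterior heart tube, had 166 UMIs in control ventricular and 352 in control atrial cells, 6.52 against 44.7 CPM. The mutant values were 9.17 and 45.7 CPM. Atrial cells thus held 6.85 times (5.68 to 8.29) the ventricular level in the control and 4.98 times (4.15 to 5.98) in the mutant. Nr2f2 was higher in the atrium by a larger factor, 25.8 times (17.9 to 38.3) in the control and 26.8 times (17.2 to 43.9) in the mutant.

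Hand1 and Irx4 lay on the opposite side. Irx4 had 406 control and 457 mutant UMIs in ventricular cells (15.9 and 20.8 CPM) and 0 and 1 UMI in atrial cells. Read against a floor of 3 UMIs per library, control ventricular cells held Irx4 at least 41.9-fold higher and Hand1 at least 51.7-fold higher. The exact 95% intervals of these ratios start lower, at 33.9 and 41.9. The mutant Hand1 ratio was 30.1 (13.8 to 82.4), from 6 atrial UMIs in 4 cells that all had over 20000 UMIs, and the mutant Irx4 ratio was 140 (25.04 to 5550), from 1 atrial UMI. Both passed in the mutant, where 2.86% of genes were higher, and in the control 3.02% were. The control mean over the chambers lay just under the minimum, at 9.84 CPM for Hand1 and 7.97 CPM for Irx4, so neither was counted. Atrial cells carried 789 CPM of the ventricular panel in the control and 1325 CPM in the mutant. The part of this difference in the atrial UMIs of Hand1 and Irx4 was not tested. In GENCODE M21 (GRCm38), Irx4 lies at chr13:73260479-73269608 on the plus strand and Nr2f2 at chr7:70351944-70366735 on the minus strand.

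The other 6 members did not pass. Gata6 was 1.53 times (1.39 to 1.69) as high in control atrial as in control ventricular cells and 1.33 times (1.20 to 1.47) in the mutant. Hand2 was 1.505 and 1.36 times as high in the atrium, and Nkx2-5 1.33 and 1.39 times. Tbx20 was 1.54 and 1.31 times as high there. The intervals of these 4 genes excluded 1 in both libraries. Mef2c was 1.10 times as high in the atrium in each library, with intervals of 1.03 to 1.18 and 1.03 to 1.19. The Gata4 interval included 1, at 1.13 (0.941 to 1.35) and 1.04 times (0.866 to 1.24). Where clusters replaced the marker gate, Tbx20 no longer leaned to the atrium (log2 ratio of ventricle to atrium 0.02 and 0.09) and Gata4 leaned to the ventricle (0.08 and 0.30), with the atrial cells of cluster 13, described below, left in no type.

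**Figure D3:**
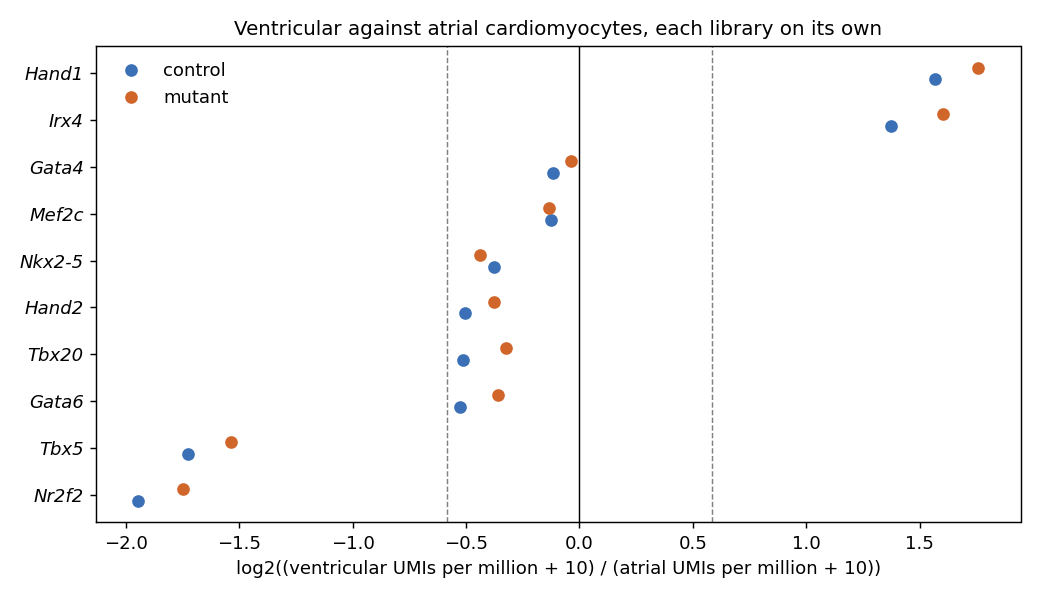
Log2 ratio of ventricular to atrial level, with 10 added to each CPM (horizontal axis), for each gene in the control (blue) and mutant (orange) library. Dashed lines mark 1.5-fold. Hand1 and Irx4 lie to the right, Tbx5 and Nr2f2 to the left, and the other 6 genes between the lines in both libraries.

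Other genes of the same programmes were counted in the same way. Of 11 other chamber, conduction and field factors measured, 2 were higher and 4 lower in the ventricle in both libraries, and the median log2 ratio was -0.05 in the control and 0.09 in the mutant, against -0.10 and -0.02 over all genes. The ventricular Notch effector Hey2 stood at 22.9 and 32.1 CPM in ventricular and 0.13 and 0.45 CPM in atrial cells. Nr2f1, the paralogue of Nr2f2, stood at 2.51 and 0.91 CPM against 96.8 and 74.1 CPM. Shox2, a sinus node factor, was also lower in the ventricle.

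Among 7 measured relatives by family, Tcf4 was higher in the ventricle (36.1 and 28.9 against 15.7 and 14.0 CPM) and Nr2f1 was lower. Their median was -0.08 and 0.00. Of 10 partners and cofactors, 0 were higher and 2 lower, the muscle ankyrin repeat gene Ankrd1 and the coactivator Cited2, with medians of -0.14 and -0.10. Of 18 known target genes, 2 were higher and 8 lower. These include Myh7 and Angpt1, markers of the ventricular and the atrial gate, whose direction the gate set. Without them 1 of 16 was higher and 7 were lower, with medians of -0.65 and -0.41. Nppa, a classic target of Nkx2-5, Gata4 and Tbx5 encoding atrial natriuretic peptide, stood at 871 and 1178 CPM in the ventricle and 6977 and 8115 CPM in the atrium. The atrial myosin genes Myh6 and Myl7 were also lower in the ventricle. Myh6 is a marker of the general cardiomyocyte gate, which both chambers passed.

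Within each chamber 1 cluster of cells stood apart in most members. It was picked out after its values were seen. Cluster 9, led by Ttn, Sorbs2, Myh7 and the long noncoding RNA Kcnq1ot1, held 161 of 1603 control and 158 of 1254 mutant ventricular cells. Cluster 13, led by Myh6, Ttn, Ryr2 and Shox2, held 62 of 429 and 43 of 335 atrial cells. Of the 10 members, only Tbx20 was among the 2000 variable genes used for clustering.

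In cluster 9 of the control, Tbx20 stood at 113 CPM against 31.0 CPM in the other ventricular cells, 3.66 times as high (3.18 to 4.20). Gata4 was 3.16 times (2.56 to 3.87), Gata6 2.70 times (2.36 to 3.08), Irx4 3.32 times (2.65 to 4.15) and Hand1 2.73 times (2.20 to 3.36) as high. Tbx5 had the largest ratio, 6.05, with 26.2 against 4.32 CPM. Nkx2-5, Hand2 and Mef2c differed less, at 1.57, 1.52 and 1.42 times. The mutant gave 4.41 times for Tbx20, 3.24 for Gata4, 4.57 for Tbx5 and 1.09 (0.982 to 1.20) for Mef2c.

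Cluster 13 gave a like set in the atrium. Control Tbx20 stood at 217 against 37.4 CPM, 5.80 times (4.82 to 6.97), and Nr2f2 at 108 against 22.6 CPM, 4.78 times (3.71 to 6.15). Tbx5 stood at 127 against 32.6 CPM, and Nkx2-5 at 174 against 138 CPM, only 1.26 times (1.07 to 1.48). Irx4 and Hand1 stayed at 0 UMIs in cluster 13 of both libraries.

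Many genes shared the shift. Of 9 members measured in the control ventricle 7 were past 1.5-fold higher in cluster 9, where 49.7% of 6405 genes were, with a median log2 ratio of 1.21 for the members and 0.58 for all genes. In the mutant these were 6 of 9 members, 47.0% of genes, and medians of 1.15 and 0.52. In the atrium 5 of 8 members passed in the control and 6 of 8 in the mutant, against 47.0% and 46.4% of genes. Mitochondrial genes gave 6.71% of UMIs in cluster 9 and 3.96% in the other ventricular cells of the control, and Kcnq1ot1 stood at 321 against 33.8 CPM. The part of these measures in the result was not tested.

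**Figure D4:**
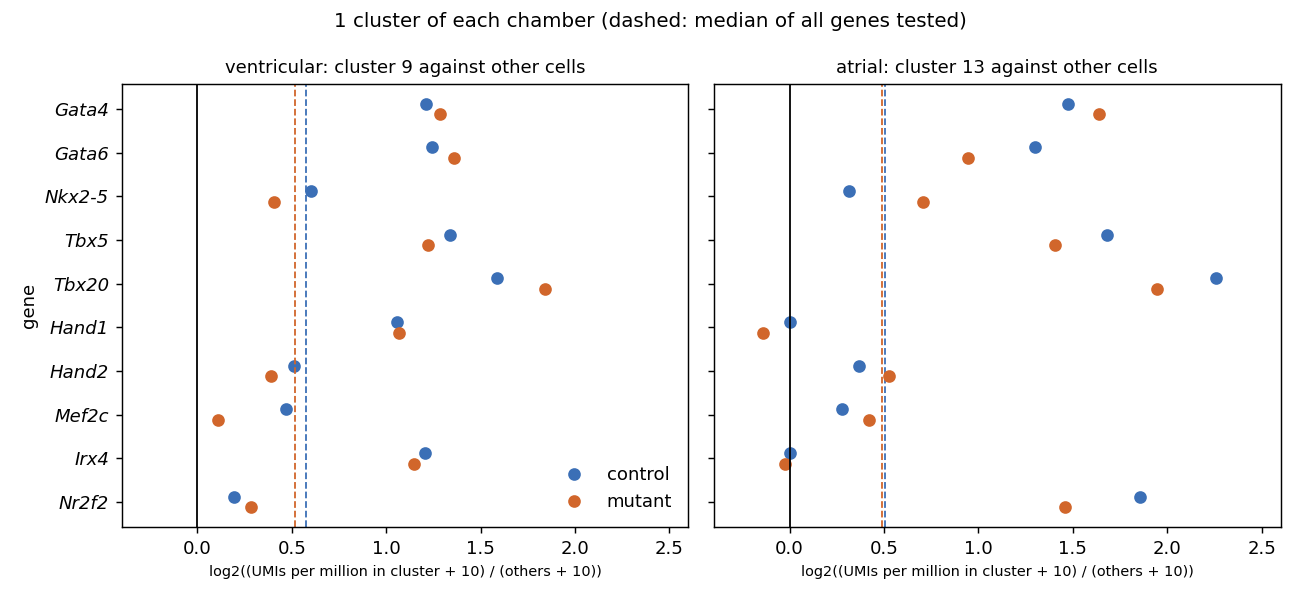
Log2 ratio of the level in cluster 9 to other ventricular cells (left) and in cluster 13 to other atrial cells (right), with 10 added to each CPM, for each gene in the control (blue) and mutant (orange) library. Dashed lines are the medians of all genes tested. Gata4, Gata6, Tbx5 and Tbx20 lie to the right of the dashed lines in both chambers and libraries.

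The chamber contrasts of Tbx5 and Nr2f2 were present between the 2 clusters and among the remaining cells of each chamber. The remaining ventricular cells are those outside cluster 9, and include 19 control and 20 mutant cells of cluster 13. Between cluster 13 and cluster 9 of the control, atrial Tbx5 was 4.84 times (3.57 to 6.60) and Nr2f2 39.4 times (18.5 to 100.4) the ventricular level. Among the remaining cells the ratios were 7.54 (5.92 to 9.65) and 19.9 (13.1 to 31.4). Tbx20 was 1.91 times (1.60 to 2.29) as high in the atrium between the clusters and 1.21 times (1.04 to 1.39) among the remaining cells of the control. In the mutant these ratios were 1.41 (1.17 to 1.69) and 1.38 (1.18 to 1.60). Gata4 was equal between the chambers among the remaining control cells, at 15.7 CPM in both.

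Ventricular cells were also divided by Nppa, which marks trabecular muscle. The control median share was 0, so 756 cells with a Nppa UMI were set against 847 without, and the mutant was divided at its median of 0.671 per 10000 UMIs. Depth differed between the sides, with medians of 13932 and 9047 UMIs in the control and 13122 and 11173 in the mutant. Hand1 was 1.72 times (1.41 to 2.11) as high on the Nppa side in the control and 1.69 times (1.42 to 2.02) in the mutant. Tbx5 was 3.37 times (2.22 to 5.30) as high in the control, but the mutant ratio was 1.27 (0.947 to 1.70). Irx4 did not differ beyond counting error, at 0.901 (0.736 to 1.10) and 1.06 (0.875 to 1.28).

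Endothelial cells with a UMI of Npr3, an endocardial gene, numbered 32 of 130 in the control and 44 of 194 in the mutant. They were deeper than those without, with medians of 5136.5 and 3068 UMIs in the control and 6336 and 3778.5 in the mutant. Gata6 was 2.74 times (1.52 to 5.07) as high in them in the control and 3.48 times (2.31 to 5.33) in the mutant. Nr2f2 was 4.21 times (2.42 to 7.66) and 2.13 times (1.38 to 3.30) as high. In the control 1 cell carried 25 of the 51 Nr2f2 UMIs on the Npr3 side. Mef2c went the other way in the control, at 0.443 (0.279 to 0.681), and did not differ in the mutant, at 1.04 (0.769 to 1.39). By cluster, Mef2c stood at 272 and 309 CPM in cluster 21, led by Fabp4 and Sox17, and at 74.3 and 84.4 CPM in cluster 6, led by Tm4sf1 and Emcn. Gata4, Gata6 and Hand2 were nearly absent from cluster 21, at 0 to 10.2 CPM.

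Mesenchymal cells with a UMI of Tcf21, a gene of epicardium-derived fibroblasts, numbered 317 of 633 and 629 of 976. Gata6 was 1.39 times (1.10 to 1.77) and 1.78 times (1.47 to 2.18) as high in them. Hand1 stood at ratios of 0.363 (0.0799 to 1.35) and 0.193 (0.052 to 0.620). In cluster 18, led by Postn, Sox9 and Bgn, Gata6 stood at 434 and 537 CPM and Tbx20 at 356 and 370 CPM. In cluster 5, with Tcf21 among its leading genes, they stood at 97.6 and 103 CPM and at 50.9 and 54.4 CPM.

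For each member the genes most like it were taken by Pearson correlation of log2(CPM + 10) over the 10 points (5 types in 2 libraries), among 2851 genes. These had at least 50 CPM in a type in each library. Gate markers, such as Tnnt2 and Actc1, and the other members were left out and could not be ranked. Gm and Rik gene models and mitochondrial, ribosomal, haemoglobin and sex-linked genes were also left out. The points of a library share its preparation and depth, so the values are descriptions. Nkx2-5 was most like Tnni3, cardiac troponin I (r = 0.999), followed by Myom1 and Rbm24. Gata6 was most like Txndc5, Snhg18 and Rcn3 (0.976 to 0.964), and Tbx20 like Rasl11b, Ociad2 and Serpine2 (0.959 to 0.923). For Irx4 the nearest were Minos1, Slc25a13 and Fam162a (0.970 to 0.943), and for Hand1 they were Mif, Rnd2 and Higd1a (0.946 to 0.919). Nr2f2 was most like Arl4a, Uqcc3 and Lxn, and Tbx5 like Arl5a, Rnf187 and Tmem163, at a lower 0.923 to 0.904. Gata4 was nearest to Upf2, Arf4 and Wtap, Hand2 to Lman1, Add1 and Arl1, and Mef2c to Psmb5, Mrpl46 and Coq2.

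The comparison of the mutant with the control library asked how these factors stood where Prmt1 was floxed. Of 50 pairs of member and type, 2 passed 1.5-fold, both higher in the mutant: Tbx5 in mesenchymal cells, 1 of 7 members measured there, and Tbx20 in endothelial cells, 1 of 6. Among all genes 2.53% passed in mesenchymal cells (1.4% higher) and 9.5% in endothelial cells (7.77% higher). In ventricular cells 0 of 8 measured members passed (0.626% of genes), in atrial cells 0 of 8 (1.04%) and in epicardial cells 0 of 6 (7.32%).

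Tbx20 had 8 UMIs in control and 69 in mutant endothelial cells, 8.06 (3.48 to 15.9) and 47.0 CPM (36.6 to 59.5), a ratio of 5.83 (2.80 to 14.0). The UMIs came from 3 of 130 control and 23 of 194 mutant cells. Of the 69 mutant UMIs 48 lay in 17 cells of cluster 23, led by Wnt4, Nts and Stmn2, where the level was 185 CPM. The control had 4 cells of that cluster, with 3 UMIs and 18.2 CPM. In cluster 6 the levels were 9.06 CPM in the control and 24.5 CPM in the mutant. The mesenchymal panel stood at 130 and 170 CPM in these endothelial cells, and its part in the result was not tested. Mutant cells of cluster 23 also held Gata4 at 205 CPM and Hand2 at 228 CPM. Without cells over 20000 UMIs the log2 ratio was 2.31. With clusters in place of the gate the log2 ratio was 0.63, against 1.66 with the gate.

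Tbx5 had 9 UMIs in control and 48 in mutant mesenchymal cells, 5.30 (2.42 to 10.1) and 15.8 CPM (11.7 to 21.0), a ratio of 2.98 (1.45 to 6.91). Of the mutant UMIs 35 lay in cluster 18, where the level was 43.9 CPM against 11.7 CPM in the control. In the mutant the gene lay mainly in cells with a Tcf21 UMI, at 19.6 CPM, and stood at 5.91 CPM in those without. Markers of the outflow and vessel wall summed to 338 CPM in control and 76.7 CPM in mutant mesenchymal cells, and their part was not tested. The call was lost when each cell had equal weight (log2 ratio 0.33), with clusters in place of the gate (0.56), at a fold of 2, with free RNA subtracted, and without cells over 20000 UMIs (0.51). With each cell thinned to 1000 UMIs, Tbx5 was seen in 0.790% of control and 0.615% of mutant mesenchymal cells.

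Gata6 in epicardial cells lay just outside the threshold, at 241 CPM in the control and 157 CPM in the mutant, a log2 ratio of -0.58 with 10 added to each CPM. The control level was 1.53 times (1.27 to 1.84) the mutant level. Most UMIs came from cluster 22, led by Upk3b and Col1a1, with 126 of 208 in 23 control cells and 150 of 261 in 30 mutant cells, and there the levels were 434 and 290 CPM. In cluster 2, the largest epicardial cluster, they were 99.1 and 88.1 CPM. The log2 ratio ranged from -0.79, without cells over 20000 UMIs, to -0.14 with clusters in place of the gate and -0.12 with free RNA subtracted. The pair passed in 5 of the other settings. The epicardial panel itself stood at 2810 CPM in the control and 2157 CPM in the mutant, and its part was not tested.

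Tbx5 in endothelial cells stood at 14.1 CPM in the control and 2.72 CPM in the mutant, from 14 and 4 UMIs, and lay under the minimum. 1 control cell carried 8 of the 14 UMIs. Hand2 in epicardial cells stood at 153 and 114 CPM, a ratio of 0.747 (0.595 to 0.9397), and in endothelial cells at 85.7 and 119 CPM, a ratio of 1.39 (1.07 to 1.82).

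In ventricular cells the ratios of mutant to control were smaller but well counted. Hand1 stood at a ratio of 1.37 (1.21 to 1.54), Irx4 at 1.31 (1.14 to 1.498), Gata4 at 1.25 (1.10 to 1.42), Gata6 at 1.23 (1.13 to 1.33) and Tbx20 at 1.22 (1.11 to 1.33). Nkx2-5, at 0.993 (0.939 to 1.05), Hand2, at 1.04 (0.957 to 1.13), and Mef2c, at 1.04 (0.990 to 1.10), had intervals that included 1. Over the 8 members measured there the median log2 ratio was 0.23, against 0.04 over 5273 genes. In the same comparison cluster 9 made up 161 of 1603 control and 158 of 1254 mutant cells. Inside cluster 9 the levels were 49.6 and 57.8 CPM for Gata4, 43.0 and 47.6 CPM for Irx4, and 45.7 and 56.3 CPM for Hand1. Among the other ventricular cells they were 15.7 and 17.8 CPM, 12.9 and 16.0 CPM, and 16.8 and 21.6 CPM. In atrial cells the intervals of Gata4, Gata6, Nkx2-5, Tbx5, Tbx20, Hand2 and Mef2c included 1, with ratios of 0.938 to 1.15, and Nr2f2 stood at 0.804 (0.661 to 0.975).

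**Figure D5:**
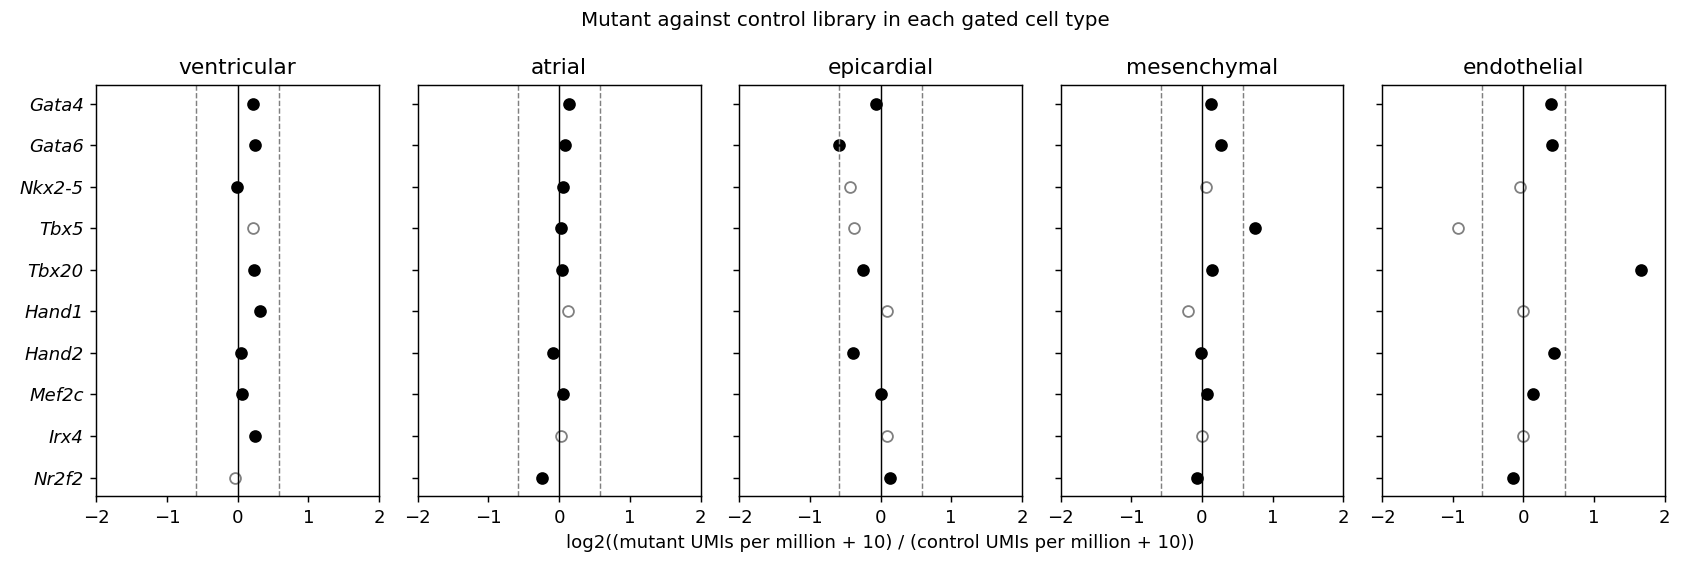
Log2 ratio of mutant to control level, with 10 added to each CPM (horizontal axes), for each gene in 5 gated cell types. Open circles have a mean under 10 CPM and dashed lines mark 1.5-fold. Tbx20 in endothelial cells and Tbx5 in mesenchymal cells are the filled circles beyond the lines.

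Related genes were counted in the same comparison. Of all genes, 0.626% passed in either direction in ventricular cells, 1.04% in atrial, 7.32% in epicardial and 2.53% in mesenchymal cells. In ventricular cells 0 of 6 relatives, 0 of 10 partners and 0 of 8 other chamber factors passed, and 1 of 17 targets was lower, the creatine kinase gene Ckm (460 and 230 CPM). In atrial cells 1 of 10 chamber factors was higher and 1 lower, and 2 of 18 targets were higher. These targets were Bmp2 (2.54 and 20.1 CPM) and Myh7 (89.4 and 218 CPM). Myh7 is a marker of the ventricular panel, which the gate limits in atrial cells. In epicardial cells 3 of 13 targets were lower, namely Nppa (20.8 and 9.65 CPM), Gja1 (33.5 and 17.5 CPM) and Bmp2 (19.7 and 6.03 CPM), and no relative, partner or chamber factor passed. These low levels are given without an interval. Nppa stood at 871 to 8115 CPM in the 2 chambers, and the part of free RNA in its epicardial level was not tested. In mesenchymal cells 1 of 11 relatives and 1 of 14 chamber factors were higher, and 1 gene was higher and 1 lower among 15 partners and among 15 targets. The lower target was Tnnt2, a marker of the cardiomyocyte panel, which the gate limits in these cells. In endothelial cells 4 of 9 other chamber factors were higher in the mutant, where 7.77% of all genes were. They were Meis2 (117 and 197 CPM), Foxc2 (25.2 and 54.5 CPM), Hey2 (6.05 and 24.5 CPM) and Hey1 (6.05 and 19.1 CPM). In endothelial cells 2 of 9 targets and 1 of 8 partners were higher and 1 target lower, and no relative passed. The genes named here outside the members were chosen after their values were seen. The 9 chamber factors had a median log2 ratio of 0.41, against 0.05 over all genes. Cluster 23 gave 4 of 130 control and 17 of 194 mutant endothelial cells, and its part in these values was not tested.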

How the data were processed

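The authors deposited counts of UMIs per gene and barcode for each library, and per the file headers these come from Cell Ranger 3.0.2. Seurat is named in the submitters' processing notes. No build or annotation is named in the sources used here. The control matrix listed 6794880 barcodes and held 49323576 UMIs. The mutant matrix listed 7181 barcodes, already filtered, and held 48527471 UMIs. Only 8 of the cells that passed had a barcode found in both libraries.

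The members and gene lists were chosen with earlier results of these data known, and the gate was set with the data at hand. Per 10000 UMIs, cardiomyocytes had at least 100 UMIs of 8 markers. Ventricular cells had at least 80 of their panel and under 10 of the atrial panel, and atrial cells at least 6 and under 40. Epicardial and mesenchymal cells had at least 8, and endothelial cells at least 4, from at least 2 markers. Non-cardiomyocytes had under 30 of the cardiomyocyte panel. Myl4 was left out of the atrial panel, and Ramp2, Egfl7 and Tek out of the endothelial panel, after their levels in other types were seen. Cells with 2 high panels were left out, which is how doublets were treated. The mesenchymal panel was the exception, since no upper limit was set on it in the other types. An alternative also removed the 6% of cells with the highest doublet scores.

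Counts were summed per type and library and divided by the type's total. Ratios are log2 with 10 CPM added. A gene was measured at a mean of at least 10 CPM. Intervals are Poisson, conditional binomial or Clopper-Pearson, at 95%, and a count of 0 was read as allowing 3 UMIs. UMI counts limit precision as these intervals give. The 25 clusters used as an alternative and for description came from the Leiden method at resolution 1, with 30 components and 15 neighbours (scanpy 1.11.5, leidenalg 0.10.2). On Poisson counts simulated for 6698 genes with mesenchymal totals, 94% of 2-fold increases, 66% of 2-fold decreases and 40% of 1.5-fold increases were called. Their intervals held the true ratio for 94%, 92% and 94% of genes, in the same order. Because the counts were drawn as Poisson, these shares describe the calculation only. They do not cover spread between cells, or types with other totals. Genes were named as all 10 members, at most 4 genes of a list by size of the chamber ratio, and the 3 genes most like each member. All groups have 1 library, so no test was made. Python 3.11.15, numpy 2.4.6, scipy 1.17.1 and pandas 2.3.3 were used.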

Additional observations from a re-analysis of the deposited data

How the results depend on the processing

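Each count was recomputed under 13 other settings: cell minimums, mitochondrial share, a stricter gate, clusters in place of the gate, equal weight per cell, another denominator, doublet scores, free RNA subtracted, pseudocount, fold and minimum level. Leaving out cells over 20000 UMIs was chosen after seeing the data. Among members, no chamber or genotype ratio called with the settings above changed its sign. Some ratios called only under another setting did. Mef2c in epicardial cells was called lower in the mutant with free RNA subtracted (log2 ratio -1.06, against 0.01). Tbx20 there was called lower with free RNA subtracted and without cells over 20000 UMIs, and ranged from -1.78 to 0.48. The 2 pairs past 1.5-fold between mutant and control became 6 with free RNA subtracted, 4 without cells over 20000 UMIs and 1 at a fold of 2. Subtraction used the control's near-empty barcodes for both libraries, since the mutant had none, and was scaled by the haemoglobin share of each type. The 2 members past 1.5-fold between the chambers in both libraries became 4 with no minimum level, which then counts Hand1 and Irx4. Members highest in the same type in both libraries numbered 7 to 10 of 10 over these settings. Tbx20 in endothelial cells ranged from 0.63 to 2.40 and Tbx5 in mesenchymal cells from 0.33 to 1.42 (log2). Of all values recomputed, 656 stayed within their counting interval or count range and 114 moved beyond it. Low totals limit the endothelial and epicardial types most. No paired analysis was possible because each genotype has 1 library.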
